A study of Mus musculus with 4 samples.

Results

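Pulmonary surfactant genes were followed in 4 single-cell RNA libraries of mouse alveolar epithelium. They were taken by name as 4 surfactant proteins (Sftpc, Sftpb, Sftpa1 and Sftpd), the surfactant-associated protein Sfta2, and the proteases Napsa and Ctsh. These are 7 of the 11242 genes listed in all 4 libraries and of the 14561 listed in any, and each of the 7 was listed in every library. In adult alveolar type II (AT2) cells they took 20.1% of all transcripts counted (95% binomial interval 20.1 to 20.2). In alveolar type I (AT1) cells they took 0.223% at postnatal day 3 (P3; 0.221 to 0.225), 0.136% at P15 (0.134 to 0.138) and 0.0491% at P60 (0.0474 to 0.0509). Of the transcripts counted for the 7 genes in AT1 cells, Ctsh gave 33367 of 50508 at P3. It gave 14842 of 18821 at P15 and 957 of 3096 at P60. The fall of the summed share with age thus did not hold for each member, and Sftpc, Sftpa1 and Sftpb were lowest at P15. Ctsh stood apart from the other members. Its share of transcripts in AT1 cells at P3 and P15 was as high as in adult AT2 cells. No scaling other than by the total was run for that comparison. The other members except Sftpb were also above the level of stromal cells in both the P3 and the P15 library, Sftpa1 and Napsa on few stromal UMIs, Sftpb was above it at P3, and at P60 only Ctsh was, by the counting intervals given below. Those intervals do not cover the concentration of Sftpc in few AT1 cells at P3 and P15.

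Surfactant is the film of lipid and protein that lowers surface tension in the alveolus. AT2 cells, the cuboidal cells of the alveolar wall, make it, store it in lamellar bodies and secrete it, and the flat AT1 cells cover most of the gas exchange surface. The hydrophobic proteins SP-B and SP-C (Sftpb, Sftpc) help the lipid film to form and spread. They are cut from larger precursors on the way to the lamellar body, and the aspartic protease napsin A (Napsa) and the cysteine protease cathepsin H (Ctsh) take part in the cutting of the SP-B precursor. SP-A and SP-D (Sftpa1, Sftpd) are collectins, soluble lectins that bind microbes, and Sfta2 encodes a small secreted protein found with them.

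All mice had a mixed FVB/C57BL6 background, carried Sftpc-CreER, the green reporter Rosa26-Zsgreen and the red reporter Hopx-RFP, and had received 1 or 2 doses of tamoxifen. AT1 cells were sorted at P3, P15 and P60 as cells with red fluorescence and surface Pdpn and without green fluorescence or CD45. The AT2 gate, used at P60, took green cells without CD45. The green label of the AT2 gate is switched on by a Cre that Sftpc drives, so a high Sftpc level there is part of the gate, and cells with the label were sorted out of the AT1 libraries. The form of the Sftpc-CreER allele is not given in the labels, and whether it adds to or takes from the Sftpc counts was not tested. Lungs for AT1 cells were digested with elastase and collagenase in addition to neutral protease, and lungs for AT2 cells with neutral protease only, so cell type and digestion cannot be told apart at P60. Each group is 1 library, the sources used here do not give the number of mice in it, and no difference below has a replicate check.

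The libraries held 1337 to 3149 cells with medians of 4864 to 7477 unique molecular identifiers (UMIs, each standing for 1 captured transcript) per cell. Any pair of libraries shared 3 to 15 cell barcodes. Cells were clustered in each library without the 7 genes and named from markers that left them out. The AT1-like class held 2839 cells at P3 (90.2% of the library), 2662 at P15 (90.5%) and 1105 at P60 (82.6%), and the AT2-like class 1217 cells (58.1%). Ager and Hopx followed the sort. Both are among the markers that named the classes, and the red reporter is Hopx-RFP, so their levels are no separate check. Ager was at 16778, 35043 and 22169 CPM (counts scaled so that all UMIs of a class sum to 1000000) in the AT1-like classes and 1522 CPM in the AT2-like class, and Hopx at 986, 1250, 5846 and 13.5 CPM. In the AT2 library 873 cells stayed unnamed, 615 of them in a cluster led by Hopx, Pdpn and Igfbp2 whose AT2 marker level was 102% of the library median. The Hopx level of the AT2-like class leaves out that cluster. The 3′ chemistry counts an end of each transcript, so CPM needs no scaling to gene length, although capture may differ between genes.

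The genes lie on 5 chromosomes of the mouse genome (build GRCm38, GENCODE annotation), and all are protein coding. Sftpa1 (chr14:41131782-41136452, plus strand) and Sftpd (chr14:41172214-41185149, minus strand) are neighbours separated by 35.8 kb. Sftpc is on the same chromosome (chr14:70520949-70524081, minus strand). Sftpb is at chr6:72304610-72314371, Napsa at chr7:44572380-44586862, Ctsh at chr9:90054152-90076089 and Sfta2 at chr17:35601549-35650571, all on the plus strand. The annotated span of Sfta2 overlaps Gm9573 and Mucl3 on the other strand, and Napsa overlaps the antisense gene Gm15396. The sources used here do not say whether counting used strand, so reads of Sfta2 and Napsa cannot be told apart from those of these partners.

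Promoter sequence is shown for the 3 members matched in the RefSeq promoter table (GRCm38.p6): a collectin and a hydrophobic protein, both lowest at P15 among the AT1 ages, and Sfta2, lower at each later age. Capitals mark 3 motifs searched: CTCAAG, which holds the binding core of the lung transcription factor NKX2-1 (both strands), the forkhead motif TGTTTNC (both strands, so that its reverse reads GNAAACA) and the TATA box TATAAA (plus strand). The windows are chr14:41131538-41131781, chr6:72304360-72304609 and chr17:35649458-35649707, in that order, all on the plus strand and written 5′ to 3′.
Sftpa1: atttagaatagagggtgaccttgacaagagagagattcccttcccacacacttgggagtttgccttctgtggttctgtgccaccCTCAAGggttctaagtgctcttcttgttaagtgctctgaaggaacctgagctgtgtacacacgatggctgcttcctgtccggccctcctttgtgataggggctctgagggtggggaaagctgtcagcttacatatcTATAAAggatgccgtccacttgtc
Sftpb: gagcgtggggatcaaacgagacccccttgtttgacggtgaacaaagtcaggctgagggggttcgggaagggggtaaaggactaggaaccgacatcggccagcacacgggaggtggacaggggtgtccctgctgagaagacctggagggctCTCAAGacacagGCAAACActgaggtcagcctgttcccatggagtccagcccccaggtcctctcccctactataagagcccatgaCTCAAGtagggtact
Sfta2: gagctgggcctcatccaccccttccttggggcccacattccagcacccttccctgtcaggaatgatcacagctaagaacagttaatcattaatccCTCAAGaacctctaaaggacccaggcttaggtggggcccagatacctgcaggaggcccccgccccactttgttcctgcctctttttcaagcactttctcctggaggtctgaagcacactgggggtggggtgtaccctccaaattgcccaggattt
CTCAAG stood in all 3 windows. It lay 166 bases before the RefSeq start of Sftpa1, 100 and 15 bases before that of Sftpb and 155 bases before that of Sfta2. These starts are where the full windows of 250 bases end. For Sftpa1 and Sfta2 they differ from the GENCODE starts given above, and the Sftpa1 window is printed only up to its GENCODE start. CTCAAG was found in 13.3% of the 32851 mouse promoter windows of 250 bases. The forkhead motif stood 88 bases before the RefSeq start of Sftpb, on the minus strand (17.8% of all windows), and the TATA box 30 bases before the RefSeq start of Sftpa1 (7.59%). The Sfta2 window lies inside that gene's annotated span and outside annotated exons. These are matches of letters, not sites shown to be bound.

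Ranked by UMIs among the 12509 genes listed in the AT2 library, the hydrophobic proteins Sftpc and Sftpb were at ranks 1 and 5 in AT2-like cells. Sftpc was at 134615 CPM in AT2-like cells and at 309 (P3), 124 (P15) and 218 CPM (P60) in AT1-like cells. Sftpb was at 16669 CPM in AT2-like cells and at 34.7, 14.2 and 46.5 CPM in the AT1-like cells of the 3 ages. For both genes the AT2 library was far above every AT1 library, and among the AT1 libraries P15 was lowest.

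The collectins Sftpa1 and Sftpd were at ranks 3 and 16. Sftpa1 was at 38260 CPM in AT2-like cells and at 24.8, 11.4 and 50.6 CPM in AT1-like cells from P3 to P60. Sftpd was at 5769 CPM in AT2-like cells and at 77.1, 83.0 and 8.56 CPM in the AT1-like cells. The collectins thus differed among AT1 libraries in opposite senses, Sftpa1 being highest and Sftpd lowest at P60. At that age neither exceeded its level in endothelial cells of the same library, 66.5 CPM for Sftpa1 and 20.5 CPM for Sftpd.

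Sfta2 ranked 39 in AT2-like cells at 2538 CPM and stood at 262, 30.3 and 5.87 CPM in AT1-like cells from P3 to P60. Napsa ranked 41 at 2517 CPM, with 49.0, 24.7 and 9.36 CPM in the AT1-like cells. Both went down in the order of age. Ctsh ranked 118 in AT2-like cells at 1021 CPM (95% Poisson interval 996 to 1046), and its AT1-like levels were 1474 CPM (1458 to 1489) at P3, 1073 CPM (1056 to 1091) at P15 and 152 CPM (142 to 162) at P60. Ctsh ranked 115, 110 and 1052 among the listed genes of the AT1-like classes. These intervals, like all below, cover counting error only.

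**Figure D1:**
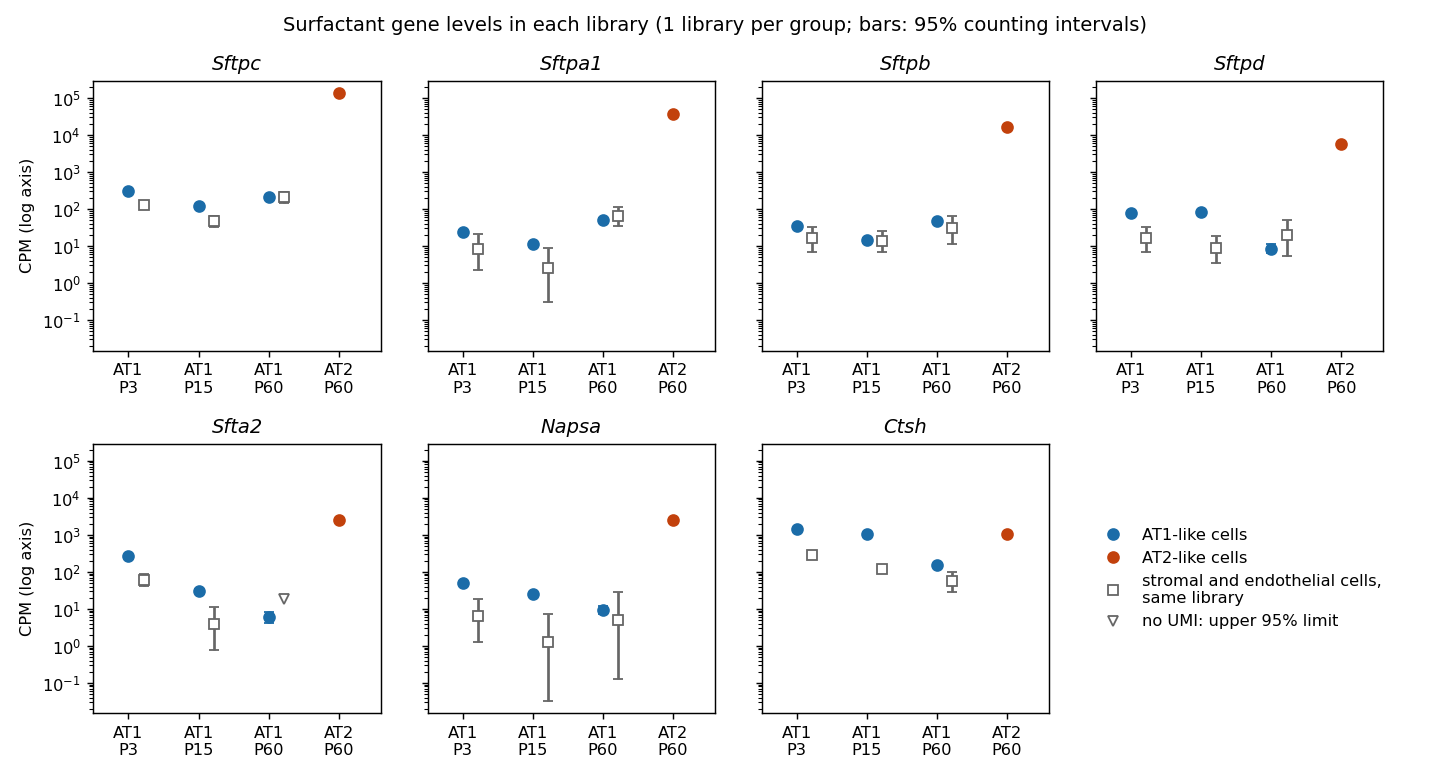
Level of each gene (CPM, log axis) in the AT1-like classes of the 3 ages and the AT2-like class (filled circles), and in the stromal and endothelial clusters of the same AT1 library (open squares, or a triangle at the upper limit where no UMI was seen). Bars are 95% Poisson intervals. Sftpc is at 134615 CPM in AT2-like cells and at 124 to 309 CPM in the AT1-like classes, while Ctsh is at 1474 and 1073 CPM in young AT1-like cells, above its 1021 CPM in AT2-like cells.

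In droplet libraries, RNA free in the suspension can be counted with any cell. The AT1-like levels were therefore set beside those of the stromal and endothelial clusters of the same library, cells that do not make surfactant. These clusters held 50 cells at P3, 152 at P15 and 56 at P60, and the AT2 library had none. Their summed AT1 marker level was 23.8% of the library median at P3, 8.72 and 21.5% in the P15 clusters and 23.8% at P60. They thus also held AT1 RNA, which limits how large a ratio of AT1-like to stromal cells can be. Its source was not tested. The P60 cluster was endothelial-like with fibroblast and smooth muscle genes among its leading genes. Scgb1a1, a secretory product of airway club cells, was close in AT1-like and stromal cells at 1027 and 916 CPM at P3, 274 and 259 at P15 and 1056 and 1099 at P60. Its ratio at P3 was 1.12 (1.02 to 1.23), so this reference too had an interval above 1 there. The summed level of the listed AT2 markers outside the 7 genes was also close, 271 and 248 CPM at P3 (19 markers), 368 and 390 at P15 (18) and 305 and 317 at P60 (17). Much of the AT1-like sum came from Cd74 and Abca3, at 67.4 and 55.9 CPM at P3, 184 and 106 at P15 and 89.3 and 88.0 at P60. A close sum thus does not show that each marker was alike. In AT1-like cells no listed AT2 marker was at 0, and in the stromal clusters 4, 5 and 6 of them were. The AT1-like classes held 22643632, 13826644 and 6306118 UMIs in all, and the stromal clusters 483371, 791887 and 195575. The number of markers at 0 thus cannot be told apart from this difference in depth.

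At P3, Ctsh was 5.28 times as high in AT1-like as in stromal cells (1474 against 279 CPM, interval of the ratio 4.46 to 6.30). Sfta2 was 4.37 times as high (262 against 60.0 CPM, 3.04 to 6.53) and Sftpd 4.66 times (77.1 against 16.6 CPM, 2.36 to 10.8). Napsa was 7.89 times as high on 3 stromal UMIs (2.69 to 38.3). Sftpc was 2.34 times as high (309 against 132 CPM, 1.83 to 3.04), and Sftpa1 and Sftpb 2.99 and 2.10 times. All 7 ratios had intervals above 1 at P3. The Sftpc interval does not cover the spread over cells, where 29 of 2839 AT1-like cells held 34.4% of its UMIs. Without AT1-like cells that held 3 or more AT2 markers, Sftpc was at 201 CPM, nearer to the stromal 132 CPM.

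At P15 the ratio was 9.14 for Ctsh (1073 against 117 CPM, 7.46 to 11.3) and 9.38 for Sftpd (83.0 against 8.84 CPM, 4.54 to 23.4). It was 8.0 for Sfta2 on 3 stromal UMIs (2.72 to 38.9), 2.66 for Sftpc (1.92 to 3.79) and 1.03 for Sftpb (0.561 to 2.09). Napsa and Sftpa1 had 1 and 2 stromal UMIs there, with ratios of 19.5 (3.48 to 774) and 4.5 (1.22 to 37.4). Sftpb was thus not distinguishable from the stromal level at P15. The 27 AT1-like cells richest in Sftpc held 33.7% of its UMIs at P15, a spread that its interval does not cover.

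At P60, Ctsh was 2.70 times as high in AT1-like as in endothelial cells (152 against 56.2 CPM, 1.5 to 5.42). Sftpc was at 218 against 210 CPM (ratio 1.04, 0.764 to 1.46), Sftpa1 at 50.6 against 66.5 CPM (0.761, 0.439 to 1.45), Sftpb at 46.5 against 30.7 CPM and Sftpd at 8.56 against 20.5 CPM. Napsa was at 9.36 against 5.11 CPM on 1 endothelial UMI. Sfta2 had 0 UMIs in the 195575 of the endothelial cluster, which allows up to 15.3 CPM, more than its 5.87 CPM in AT1-like cells. All members but Ctsh were therefore at or near the level of the endothelial cluster at P60, which itself held some AT1 RNA. A difference from that level was not detectable at this depth.

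The shares of cells with a UMI gave the same order of ages as CPM for Ctsh and Sfta2, and not for Sftpc. With each cell thinned to 2000 UMIs, a Ctsh UMI was found in 90.3% of AT1-like cells at P3 (Clopper-Pearson interval 89.2 to 91.4), 82.1% at P15 (80.5 to 83.6) and 26.3% at P60 (23.7 to 29.2). Stromal and endothelial cells had one in 16% (7.17 to 29.1), 10.9% (6.21 to 17.3) and 7.69% (1.62 to 20.9), and AT2-like cells in 83.7%. Unthinned, the AT1-like shares were 99.6, 92.6 and 48.7%, at median depths of 7294, 4936 and 5623 UMIs, and the stromal shares 50, 26.3 and 19.6%, at 9361.5, 4576 and 2982 UMIs. A Sfta2 UMI was found in 37.2, 5.79 and 1.37% of thinned AT1-like cells, against 8 and 1.45% of stromal cells at P3 and P15 and 0 of 39 at P60, which allows a share of up to 7.69%. A Sftpc UMI was found in 32.2, 14.2 and 35.5% of thinned AT1-like cells (72.0, 27.6 and 64.6% unthinned) and in 24.0, 8.70 and 38.5% of stromal cells (66.0, 19.7 and 42.9%). Each of these AT1-like shares lay inside the stromal interval (13.1 to 38.2, 4.57 to 14.7 and 23.4 to 55.4), so by this measure none of the 3 ages was separated from stromal cells, although the CPM was higher at P3 and P15. In thinned AT2-like cells the shares were 100% for Sftpc, Sftpa1 and Sftpb, 99.9% for Sftpd, 98.9% for Sfta2 and 98.2% for Napsa, and 81.4% of the cells held all 7 genes. Shallower cells left out by thinning numbered 0 at P3, 210 at P15, 80 at P60 and 15 in the AT2-like class.

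The members were in different proportions in the different cells. For each 100 UMIs of Sftpc, AT2-like cells held 28.4 of Sftpa1, 12.4 of Sftpb, 4.29 of Sftpd, 1.89 of Sfta2, 1.87 of Napsa and 0.758 of Ctsh. AT1-like cells at P60 held 23.2 of Sftpa1, 21.3 of Sftpb, 3.92 of Sftpd (2.93 to 5.15), 2.69 of Sfta2 (1.88 to 3.72), 4.28 of Napsa and 69.5 of Ctsh. Counting intervals of Sftpd and, at its edge, Sfta2 included the AT2 value there. Those of Sftpa1 (20.4 to 26.2), Sftpb (18.7 to 24.2), Napsa (3.24 to 5.56) and Ctsh (63.9 to 75.5) did not, Sftpa1 being below it and the others above. At P3 the same library held 65 AT2-like cells of its own, with 13.4 of Sftpa1, 10.6 of Sftpb, 2.20 of Sftpd, 1.45 of Sfta2, 1.97 of Napsa and 2.27 of Ctsh for each 100 of Sftpc. AT1-like cells of that library held 8.01, 11.2, 24.9, 84.8, 15.8 and 476 of these genes. At P3 the proportion of Sftpb (10.4 to 12.1) thus overlapped that of the AT2-like cells (10.3 to 10.8), that of Sftpa1 lay below it, and those of Sftpd, Napsa, Sfta2 and Ctsh lay above it beyond counting error.

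**Figure D2:**
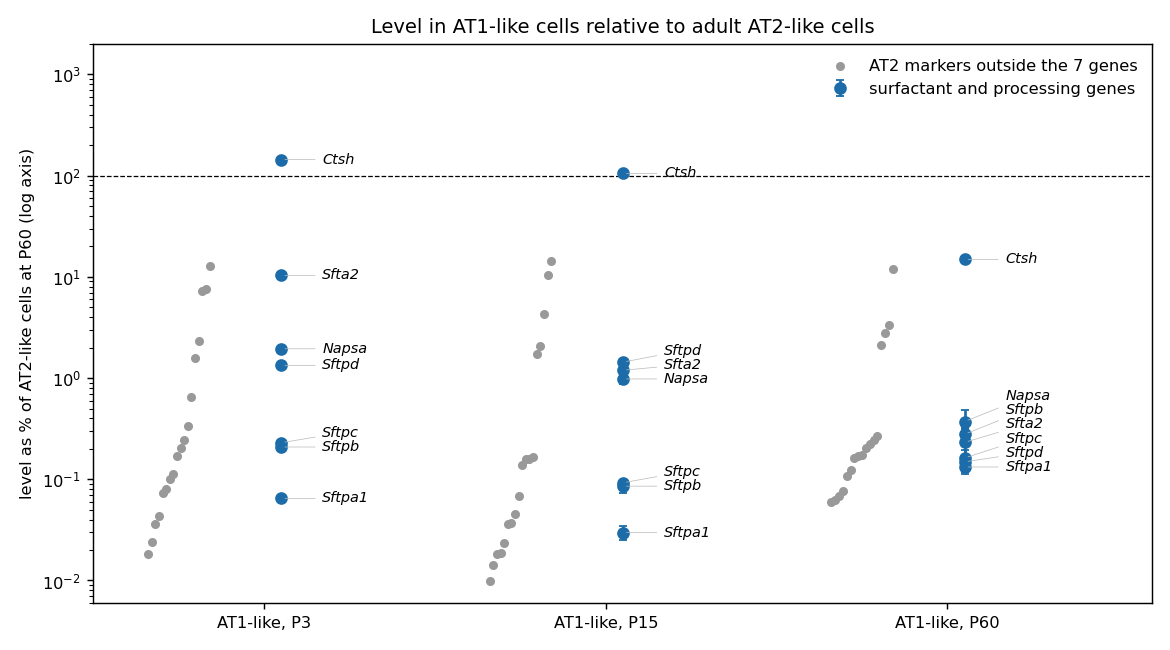
Level in AT1-like cells of each age as a percentage of the level in AT2-like cells at P60 (log axis; dashed line, 100%). Blue points are the 7 genes with 95% counting intervals, and grey points are AT2 markers outside them. Ctsh is at 144% and 105% at P3 and P15 and at 14.9% at P60, and Sfta2 drops from 10.3% to 0.231%.

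As a percentage of the adult AT2 level, Ctsh was at 144% in AT1-like cells at P3 (141 to 148), 105% at P15 (102 to 108) and 14.9% at P60 (13.9 to 15.9). Sfta2 was at 10.3, 1.19 and 0.231%, Napsa at 1.95, 0.980 and 0.372% and Sftpd at 1.34, 1.44 and 0.148%. Sftpc, Sftpa1 and Sftpb were between 0.0297% and 0.279% at every age. For comparison, 18 AT2 markers outside the 7 genes had a median of 0.187% at P3 and 0.104% at P15, and 17 a median of 0.172% at P60. The highest of these markers were the secreted protein gene Lgi3 at P3 (12.8%) and the lipid transporter Abca3 at P15 (14.3%) and P60 (11.8%), so no marker came near the Ctsh value of the young libraries. All these percentages rest on CPM, and the 7 genes alone took 20.1% of the AT2-like total. Other scalings were run for adult AT1 cells only, where the log2 difference of Ctsh reached 3.40 in place of 2.75. Whether the young Ctsh level would stay at or above the AT2 level under them was not tested.

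The comparison of adult AT2 with adult AT1 cells asked which genes separate the mature cell types. Genes counted as apart when they differed at least 2-fold with 50 CPM and 30 UMIs in the higher library. By that rule all 7 members were higher in AT2-like cells, where 13.5% of 3488 genes were higher and 54% apart in either direction. Sftpa1 differed 756-fold (678 to 847), Sftpd 674-fold (516 to 897), Sftpc 616-fold (585 to 650), Sfta2 433-fold (314 to 614), Sftpb 359-fold (320 to 404) and Napsa 269-fold (208 to 354). Ctsh differed 6.73-fold (6.28 to 7.21). The median log2 difference of the 7 genes was 8.76 and that of all genes -0.73, in a comparison where 470 genes were higher and 1412 lower. Scaling by a trimmed mean of log ratios moved the median of all genes to -0.07 and the split to 738 higher and 824 lower, and the 7 genes stayed higher. With cells of every kind summed, the Sftpc difference was 6.41 on the log2 scale in place of 9.27, and those cells included a P60 AT1 cluster of 53 cells with AT2 and immune markers and 41379 CPM of Sftpc.

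Between P3 and P15, 4 of the 7 genes passed the level minimum and 2 of them were at least 2-fold lower at P15, against 6.69% of 3287 genes lower and 15.9% apart. Over all genes 302 were higher and 220 lower at P15, which is 9.19% higher, and the split was 199 and 339 over a total without genes of ribosomal proteins, mitochondria and haemoglobin. Sfta2 was 8.65-fold lower (7.83 to 9.58) and Sftpc 2.49-fold lower (2.36 to 2.63). Ctsh was 1.37-fold lower and Sftpd 1.08-fold higher, both short of the 2-fold rule. The 3 genes under the minimum, Sftpa1, Sftpb and Napsa, stood 1.99-fold to 2.44-fold lower at P15. The Sftpc difference was -1.32 on the log2 scale and -0.95, short of the rule, without AT1-like cells that held 3 or more AT2 markers. Such cells made up 18.4% of the class at P3, 9.35% at P15 and 15.8% at P60. Markers were counted in these cells without thinning, at median depths of 7294, 4936 and 5623 UMIs, so the 3 shares are not at a common depth. Scgb1a1 moved with Sftpc, at 1027 CPM at P3 and 274 CPM at P15, and its part in the Sftpc difference was not tested.

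Between P15 and P60, 4 genes passed the minimum, of which 2 were lower at P60 and 1 higher, against 4.73% of 3422 genes lower and 3.89% higher, or 8.62% apart. The 133 higher and 162 lower genes became 109 and 207 with the trimmed mean and 260 and 117 with Malat1 left out of the total. Sftpd was 9.69-fold lower (7.37 to 13.0) and Ctsh 7.07-fold lower (6.63 to 7.56). Sftpa1 was 4.45-fold higher at P60 (3.67 to 5.43), a level that did not exceed that of endothelial cells in the same library. Sftpc was 1.76-fold higher, short of the rule. Its log2 difference of 0.81 ranged from 0.05 to 1.12 over the 12 alternative settings, so whether it reached 2-fold depended on the setting. With all cells summed, the Sftpd difference was -1.15 on the log2 scale in place of -3.28, and the Sftpa1 difference was 0.49 in place of 2.16 and no longer counted.

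Between P3 and P60, which share the libraries of the previous comparisons, 5 genes passed the minimum, of which 3 were lower and 1 higher at P60, against 9.81% of 3455 genes lower and 13.3% higher, or 23.1% apart. The 460 higher and 339 lower genes became 317 and 445 with the trimmed mean. Sfta2 was 44.7-fold lower (32.4 to 63.5), Ctsh 9.71-fold lower (9.11 to 10.4) and Sftpd 9.0-fold lower (6.87 to 12.0). Sftpa1 was 2.04-fold higher (1.77 to 2.35), a value that fell short of 2-fold under 2 other scalings and turned to -0.074 on the log2 scale with all cells summed. Sftpc was 1.42-fold lower and turned to 0.09 on the log2 scale, higher at P60, without the cells that held 3 or more AT2 markers. The differences of Sfta2, Ctsh and Sftpd stayed on the same side of the 2-fold rule in all 12 alternative settings, the smallest being -3.70, -3.08 and -1.38 on the log2 scale in place of -5.48, -3.28 and -3.17.

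In young AT1-like cells Sftpc was concentrated in a few cells and Ctsh was not, and at P60 this contrast was absent. The richest cells were taken for each gene on its own. At P3 the 29 richest cells, 1% of the class, held 34.4% of its Sftpc UMIs, and the richest had 93 Sftpc UMIs in 2000. At P15 the richest 27 cells held 33.7%, and at P60 the richest 12 held 6.68%. For Ctsh the richest 1% held 3.78, 4.82 and 7.11% of its UMIs at the 3 ages. A median AT1-like cell had 3 Ctsh UMIs in 2000 at P3, 2 at P15 and 0 at P60, and a median AT2-like cell 2. Without the cells that held 3 or more AT2 markers, Sftpc was at 201, 104 and 214 CPM in place of 309, 124 and 218 CPM, and Ctsh at 1420, 1049 and 153 CPM.

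Between the lowest and the highest AT1-like cluster, Ctsh differed 1.23-fold at P3 and 1.37-fold at P15 (5 clusters each), and 2.34-fold at P60 (4 clusters, 68.7 to 161 CPM), the widest range of the 7 genes at that age. The lowest P60 value came from 16 Ctsh UMIs in a cluster of 103 cells with a median of 2100 UMIs. The next lowest P60 cluster was at 122 CPM. At P15 Sftpd varied most, from 26.5 CPM in 1 P15 cluster to 141 CPM in another led by S100a14, Isg15 and Ndnf, a 5.31-fold range. At P3 it varied 1.62-fold. Other epithelial clusters of the young library carried parts of the set. A P3 cluster of 142 cells with club and ciliated markers held 2186 CPM of Sfta2, close to the 2538 CPM of adult AT2-like cells, with 704 CPM of Sftpb and 346 CPM of Sftpd. In the same cluster Sftpc (338 CPM) and Napsa (48.6 CPM) were at the AT1-like level, and AT2 markers summed to 883 CPM. The P3 AT2-like cluster of 65 cells, which came through the AT1 gate, held 78177 CPM of Sftpc, 10500 of Sftpa1, 8252 of Sftpb, 1718 of Sftpd, 1540 of Napsa, 1131 of Sfta2 and 1777 of Ctsh. Doublets were not called and their part in these mixed clusters was not tested.

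**Figure D3:**
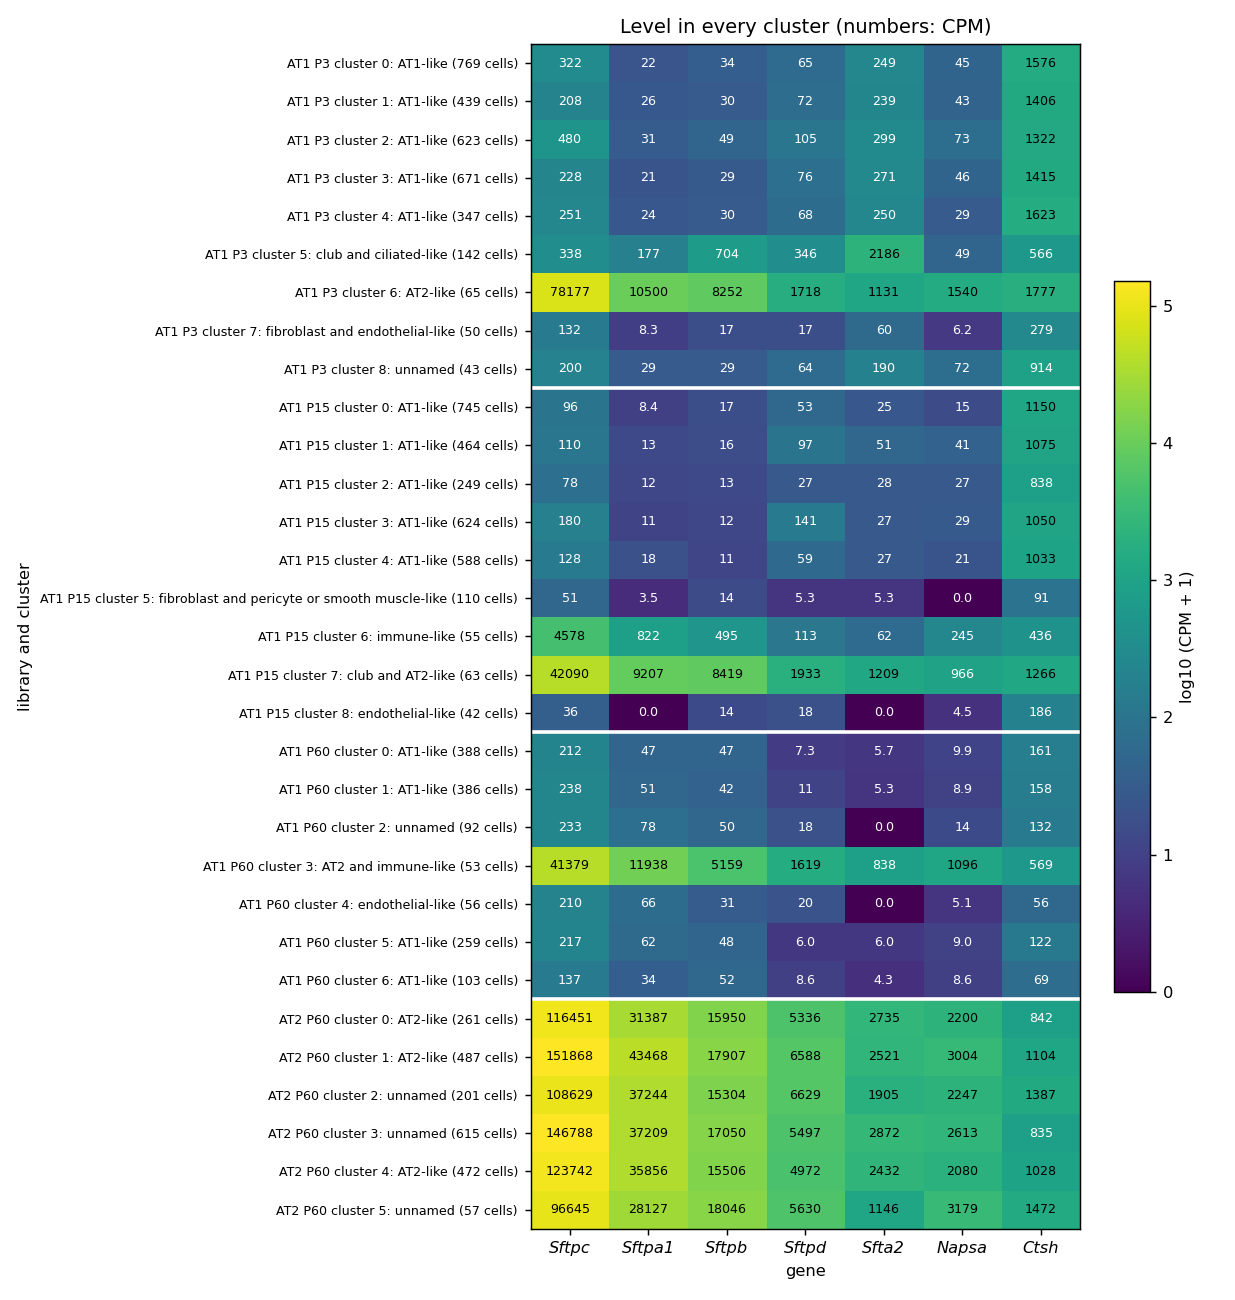
Level of the 7 genes (columns) in every cluster of each library (rows, with cell numbers), in CPM, coloured by log10 of CPM + 1. The P3 club and ciliated-like cluster has 2186 CPM of Sfta2 with 338 CPM of Sftpc, and all AT1-like clusters at P3 and P15 have 838 to 1623 CPM of Ctsh.

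Within the AT2 library the set was steady over clusters. Sftpc ranged from 96645 to 151868 CPM over its 6 clusters, named or not, and Sftpb from 15304 to 18046 CPM. Sfta2 had the widest range, 2.51-fold, with its lowest value in the 57-cell cluster of few UMIs. Over 1202 AT2-like cells thinned to 2000 UMIs, the median cell held 269 UMIs of Sftpc (percentiles 5 to 95, 147 to 365), 72 of Sftpa1 (38 to 116), 33 of Sftpb (19 to 49), 10 of Sftpd (4 to 21), 5 of Sfta2 (1 to 10), 5 of Napsa (1 to 11) and 2 of Ctsh (0 to 5). The coefficient of variation was 25.8% for Sftpc, 32.7% for Sftpa1 and 27.6% for Sftpb, and between 47.0 and 79.1% for the genes of fewer UMIs.

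**Figure D4:**
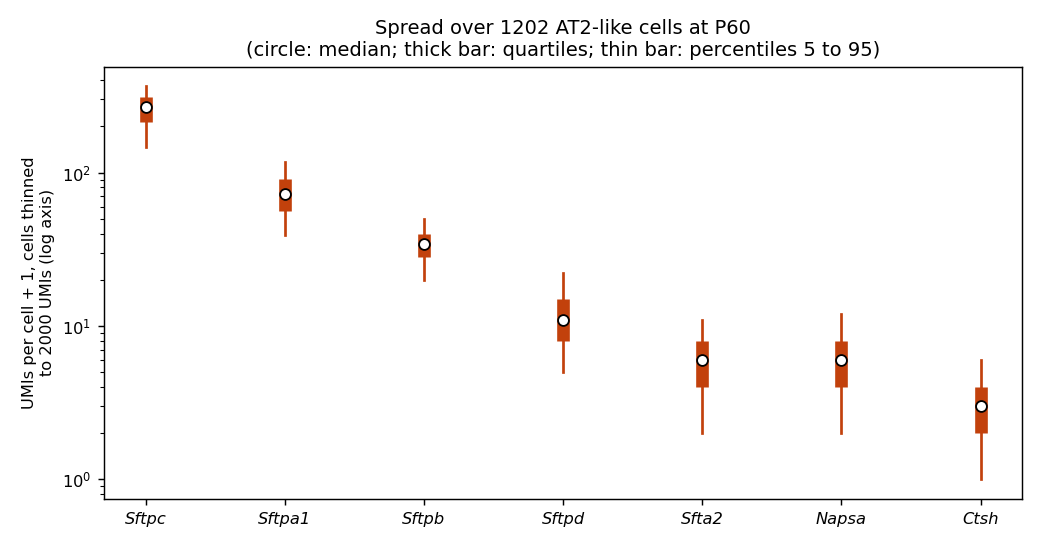
UMIs of each gene per cell plus 1 (log axis) over 1202 AT2-like cells thinned to 2000 UMIs. Circles are medians, thick bars quartiles and thin bars percentiles 5 to 95. The median cell has 269 Sftpc UMIs and 2 Ctsh UMIs.

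Over the same 1202 cells, which share a library and a fixed depth, Pearson's r was 0.50 between Sftpc and Sftpa1, 0.44 between Sftpa1 and Sftpd, 0.35 between Sftpc and Napsa and 0.34 between Sftpc and Sftpb. For Sfta2 it lay between -0.05 and 0.04 with each of the other 6 genes. In AT1-like cells, in sparse counts, the highest r of any pair was 0.12 at P3, 0.15 at P15 and 0.048 at P60. Across the 16 groups of cells of the 4 libraries, which share libraries and depth, the genes most like each member were taken from 6074. They were Slc34a2, a phosphate transporter, for Sftpc (r = 0.98), Sftpa1 (0.98) and Napsa (0.96), the chemokine gene Cxcl15 for Sftpb (0.99) and the secreted phospholipase gene Pla2g1b for Sftpd (0.98). Sfta2 was most like Rprm (0.95) and Ctsh most like Vsig2 (0.88). Of these, Slc34a2 and Cxcl15 are on the list of AT2 markers.

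Other genes of the surfactant pathway were split between the adult cell types. Of 25 genes of surfactant traffic, storage, lipid synthesis and quality control, 24 were listed and 17 passed the minimum, of which 8 were higher in AT2-like cells and 4 lower (median log2 difference -0.14). Over all genes passing, 13.5% were higher and 40.5% lower, with a median of -0.73. Of the higher genes, Abca3, Lamp3, Slc34a2, Scd1 and Fasn are also AT2 markers used to name the classes. Their higher level is thus in part fixed by that choice. Slc34a2 was at 4785 against 3.65 CPM, the desaturase gene Scd1 at 4600 against 3.17 CPM, the elongase gene Elovl1 at 1698 against 166.5 CPM and the lamellar body protein gene Lamp3 at 1461 against 1.59 CPM. Fatty acid synthase, Fasn, differed 30.1-fold and Abca3, which loads lipid into lamellar bodies, 8.45-fold (7.74 to 9.25). Emc3, of the complex that inserts membrane proteins, and the choline phosphotransferase gene Chpt1 were 3.6-fold and 4.6-fold higher in AT1-like cells. In the AT1 libraries none of the 13 passing genes was 2-fold apart at P60 from either younger age, and 1, the fusion protein gene Vamp8, was higher at P15 than at P3, by 2.08-fold.

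Relatives of Ctsh were described in the same way. Of 16 cathepsin, legumain and cystatin genes, 9 passed in the adult comparison, 2 were higher in AT2-like cells and 3 lower (median -0.27), beside 13.5% higher, 40.5% lower and a median of -0.73 over all genes. Ctsc, the dipeptidyl peptidase cathepsin C, was at 800 against 2.38 CPM, and Ctsz differed 2.83-fold. Ctsl and Lgmn were 5.61-fold and 3.18-fold higher in AT1-like cells, and Ctsb (241 against 242 CPM), Cstb and Cst3 were within 1.20-fold. Between P3 and P15, when Ctsh was 1.37-fold lower, 2 of 8 passing genes were at least 2-fold higher at P15 and none lower, Ctsa by 2.41-fold and Lgmn by 2.03-fold (median 0.64, all genes 0.13). From P15 to P60, when Ctsh was 7.07-fold lower, 1 of 8 passing genes was at least 2-fold lower, Ctsl by 2.04-fold, and the list's median was -0.50 (all genes -0.050). Between P3 and P60 none of 8 was apart, while Ctsh differed 9.71-fold.

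Transcription factors known to act on surfactant promoters were present in both cell types in part. Of 27 such genes, 16 passed in the adult comparison, with 6 higher and 5 lower in AT2-like cells (median -0.24), beside the same 13.5%, 40.5% and -0.73 over all genes. Nkx2-1 was at 340 CPM in AT2-like and 428 CPM in AT1-like cells, and at 408 and 540 CPM in AT1-like cells at P3 and P15, a range under 2-fold. Etv5, also an AT2 marker used to name the classes, was at 586 against 1.59 CPM. Cebpa was at 343 against 0.317 CPM, on 2 AT1-like UMIs (1083-fold, 299 to 8944). Foxp1 differed 3.12-fold, Tfcp2l1 18.6-fold and Srebf1 3.15-fold, while Tead1, a partner of YAP and TAZ, was 22.5-fold and Gata6 3.91-fold higher in AT1-like cells. Over the AT1 ages, Cebpb was at 7.02 CPM at P3, 23.2 at P15 and 217 at P60. Klf5 (125, 116 and 45.8 CPM) and Wwtr1 (197, 128 and 59.6 CPM) were more than 2-fold lower at P60 than at either younger age.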

How the data were processed

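Sorted mouse lung cells were sequenced with 10x 3′ single-cell libraries, 1 for each of 4 groups, per the labels' protocols. Each deposited file holds natural log values of gene UMIs, which the authors scaled to 10000 for each cell and raised by 1 before the logarithm, as the values show. Cell Ranger 1.3.1, Seurat 2.0.0 and the builds mm10 and hg19 are named per the submitters' processing notes, and the role of hg19 and the filters used before deposit are not given in the sources used here. UMIs were recovered from the deposited values by dividing each cell's unlogged values by the smallest of them, and 100% came out whole within 0.05.

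The 7 genes and the gene lists were chosen with earlier results of these data known. Libraries were clustered separately in Scanpy 1.11.5 with igraph 0.11.9 (2000 variable genes, 20 components, 15 neighbours, Leiden resolution 0.5), without the 7 genes. Clusters with 2 or more markers of another type among 10 leading genes were kept out of the class, as were cells with 3 or more endothelial, fibroblast, pericyte, immune or platelet markers. These thresholds were set after the data were seen, and no doublet caller was run. UMIs were summed over a class and given as CPM. Intervals (95%) are exact Poisson, conditional Poisson for ratios and Clopper-Pearson for shares, in SciPy 1.17.1. With 1 library in each group no test was made. Genes at least 2-fold apart with 50 CPM and 30 UMIs in the higher library were counted, after a check of this rule on simulated data. Depth limits the precision of genes with few UMIs.

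All 7 genes were named. Of each pathway list, the 4 genes highest in AT2-like cells and up to 2 more with the largest ratio in each direction were named, and the 3 genes most like each member were computed on log2(CPM + 10). Other genes named, among them the leading genes of clusters and Ager, Hopx, Ctsb and Lgi3, were given to describe a class or a limit. Alternatives changed the cells summed, the clustering, the total, the minimum and the depth of thinning (1000 or 3000 UMIs, or none).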

Additional observations from a re-analysis of the deposited data

How the results depend on the processing

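The count of 7 genes higher in adult AT2-like cells held under all 12 alternatives, and the log2 differences ranged from 5.80 to 10.22 for the members other than Ctsh and from 2.56 to 3.40 for Ctsh. The 2 genes apart between P3 and P15 became 1 without AT1-like cells that held 3 or more AT2 markers and 4 without the level minimum. The 3 genes apart between P15 and P60 became 6 without the minimum, which admits more genes by construction. Sftpc, not among the 3, reached a log2 difference of 1.12 in place of 0.81 at the highest of the 12 alternatives. With all cells summed, the log2 difference of Sftpa1 between P60 and P3 was -0.074 in place of 1.03, and that of Sftpb -0.97 in place of 0.42 (and -0.43 in place of 1.71 between P60 and P15). The cause was not tested. The sign of Sftpd between P15 and P3, 0.11 on the log2 scale, turned in 3 settings. Summing all cells, the 7 genes took 0.651% of UMIs at P3, 0.341% at P15 and 0.254% at P60 in the AT1 libraries and 20.06% in the AT2 library. With ribosomal protein, mitochondrial and haemoglobin genes left out of the total, they took 0.288, 0.152, 0.0532 and 25.4%. Without AT1-like cells holding AT2 markers the shares were 0.205% at P3 and 0.131% at P15. A wider class, chosen after seeing the data, that took in every cluster with markers of the sorted type gave 20.2% in the AT2 library and left the count of the 7 genes apart as it was in each of the 4 comparisons. Shares of cells with a UMI moved with the depth of thinning, for Ctsh at P3 from 73.6% at 1000 UMIs to 97.0% at 3000.

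No paired analysis was possible because each group is 1 library with no replicate number, and leaving out a replicate was not possible for the same reason. Depth limits the AT1 comparisons at P60, where 37 UMIs of Sfta2, 54 of Sftpd and 59 of Napsa were counted in the class and the endothelial cluster had 195575 UMIs in all.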
